A study of Rattus norvegicus with 6 samples.

Results

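The subfornical organ was compared with the ordinary ependyma of the third ventricle in adult male Sprague-Dawley rats, by setting 1 microarray of each structure side by side. The pair was chosen by the tissue labels, and it takes in 2 of the 6 arrays of the series. The labels give each of these samples as a pool of 2 and do not say what was pooled. Both structures were captured by laser microdissection under a microscope, and the ependyma came from the ventricular wall away from the subfornical and subcommissural organs. From each sample 3 ng of total RNA went through 2 rounds of in vitro transcription, with biotin labelling and a CY5 readout. The other arrays carried the subcommissural organ, a pool of total brain and, on 2 arrays, the pineal gland; the labels name no treatment and no altered gene for any rat. They name no marker gene by which the regions were chosen, and they do not say from which level or side of the ventricle the ependyma came.

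The subfornical organ is a small sensory organ beneath the fornix that projects into the third ventricle. Its capillaries are fenestrated, its neurons detect circulating angiotensin II and sodium, and its output drives thirst and salt appetite. Ordinary ependyma is a single sheet of cells whose motile cilia move cerebrospinal fluid along the ventricular wall. Tanycytes, which are elongated ependymal cells with few cilia, line parts of the ventricle and cover several circumventricular organs.

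The deposited values were linear intensities with an array median of 1.04 for the subfornical organ and 1.06 for the ependyma. A value was present for 35036 and 35040 of 35129 probes. Values below 0.142, the 5th percentile of all 6 arrays, were raised to it before log2 was taken, and a gene counted as measured where the higher side reached 1.05, the pooled median. By this rule 9054 of 12167 named genes were measured and 3113 were not. With 1 array on each side there was no replicate and no test, so genes were counted where they differed at least 4-fold. Precision is limited by there being a single array of each structure. Where the lower side was under 1.05, the fold was taken against 1.05 and is written as at least so many fold. Intensities of different probes are not on 1 scale and are compared only between arrays.

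At least 4-fold differences were found for 1235 of 9054 measured genes (13.6%), of which 624 (6.89%) were higher in the subfornical organ and 611 (6.75%) were lower. The median log2 difference of all measured genes was 0.13, subfornical organ minus ependyma. When values under the pooled median were raised to it, 783 genes (8.65%) were at that size, 397 (4.38%) higher and 386 (4.26%) lower. The pair of pineal gland arrays, the only arrays of 1 tissue, differed at least 4-fold for 247 of 8557 measured genes (2.89%), 151 (1.76%) higher on array 1 and 96 (1.12%) lower. That share depended on the level: it was 28.5% of genes with a mean below the pooled median, 2.32% of those between the median and the 75th percentile, and 0.239% of those above. The corresponding shares for the subfornical organ and the ependyma were 41.9%, 16.9% and 7.26%. Dim genes thus differed often between the pineal gland arrays too, and bright genes seldom did. The pineal gland pair was off centre, with a median log2 difference of 0.43 and 6560 of 8557 genes higher on array 1. Its shares therefore include a general shift between those arrays. The labels do not tell which animals each pineal gland array drew on, and their spread is a yardstick from another tissue and not an error of this comparison.

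**Figure D1:**
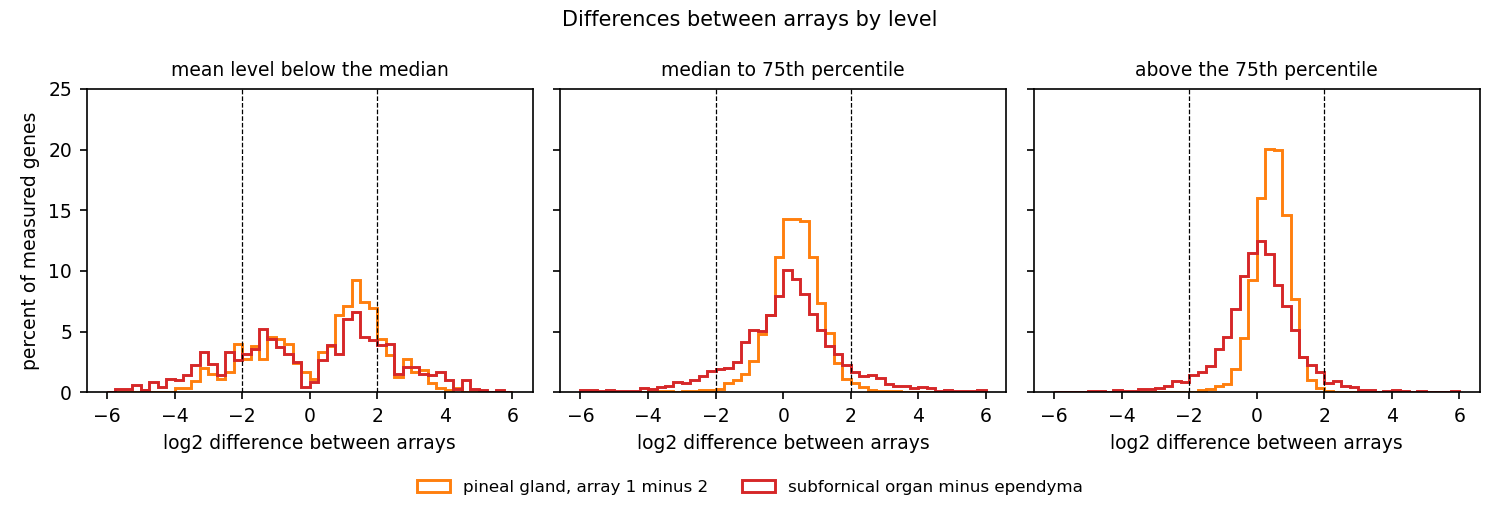
Distribution of the log2 difference between arrays, as percent of measured genes in bins of 0.25, in 3 classes of mean level. Orange lines give pineal gland array 1 minus array 2, red lines the subfornical organ minus the ependyma, and dashed lines mark 4-fold. Above the 75th percentile of level, 0.239% of genes lay past the dashed lines for the pineal gland and 7.26% for the subfornical organ and ependyma.

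The 5 largest differences toward the subfornical organ were those of Crygs, Aplnr, Ifi27l2b, Rgs19 and Pcolce. Crygs, which encodes the gamma S crystallin of the eye lens, was at 139 in the subfornical organ and 0.386 in the ependyma, at least 132-fold higher. On the other arrays Crygs was at 0.737 in the subcommissural organ, 0.661 in total brain, and 0.139 and 0.171 in the pineal gland, so the subfornical organ array stood alone. Aplnr, the receptor of the peptides apelin and elabela, was at 173 against 1.78, a 97.3-fold difference. Total brain had Aplnr at 3.33 and the subcommissural organ at 0.293, while the pineal gland arrays had 43.7 and 19.0. The receptor gene was therefore high in the subfornical organ and, at a lower level, in the pineal gland. Apln, which encodes the ligand apelin and was chosen for its receptor after values were seen, was at 54.7 against 19.8, a 2.76-fold difference.

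Rgs19, which speeds the GTPase of inhibitory G protein alpha subunits, was at 65.9 against 1.05, a 62.6-fold difference, and did not pass 1.40 on the 4 other arrays. Pcolce, a secreted protein that enhances the cleavage of procollagen, was at 91.3 against 1.47, a 61.9-fold difference. It was also high in total brain (42.7) and in the pineal gland (48.0 and 42.6), so the ependyma and the subcommissural organ (4.76) were the low arrays. Clec10a, a lectin of macrophages and dendritic cells, was at 58.6 against 0.723, at least 55.8-fold higher. Cldn19, a claudin of tight junctions, was at 39.1 against 0.970, at least 37.2-fold higher, and reached at most 5.03 elsewhere. Tubb6, a beta tubulin, was at 35.2 against 0.728, at least 33.5-fold higher, with at most 3.04 elsewhere. Cidea, a protein of lipid droplets, was at 35.2 against 0.297, also at least 33.5-fold higher, but it was at 10.3 in total brain and 22.7 and 18.9 in the pineal gland. Pla2g3, a secreted phospholipase A2, was 30.4-fold higher at 117 against 3.85, but its other probe gave a log2 difference of 1.32, under 4-fold. In all, 62 genes in the subfornical organ (0.685% of measured genes) stood at least 4-fold above each of the 5 other arrays. Values under the pooled median were raised to it for this count, a description that takes no account of spread.

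The largest difference toward the ependyma was that of Oxt, the precursor of the hormone oxytocin. Its intensity was 0.0269 in the subfornical organ and 317 in the ependyma, at least 302-fold lower. On the other arrays Oxt did not pass 0.654, so the ependyma was the only array on which it was detected above the pooled median. Atp2c2, a calcium and manganese pump of the secretory pathway, was at 0.843 against 52.9, at least 50.4-fold lower. Itih3, a heavy chain of the inter-alpha-trypsin inhibitors, was at 1.14 against 43.7 (38.2-fold lower). Gpc3, a cell surface proteoglycan, was at 2.03 against 60.5 (29.8-fold lower), and Slc44a4, a transporter of the choline transporter-like family, was at 2.55 against 64.3 (25.2-fold lower). Gpc3 was at most 6.48 on the 4 other arrays, whereas Slc44a4 was also high in the subcommissural organ, at 46.0. Several others of the 20 largest, such as Kif6 and Spag6l, are ciliary genes and are described with that group. In the ependyma 41 genes (0.453% of measured genes) stood at least 4-fold above each of the 5 other arrays, counted in the same way.

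**Figure D2:**
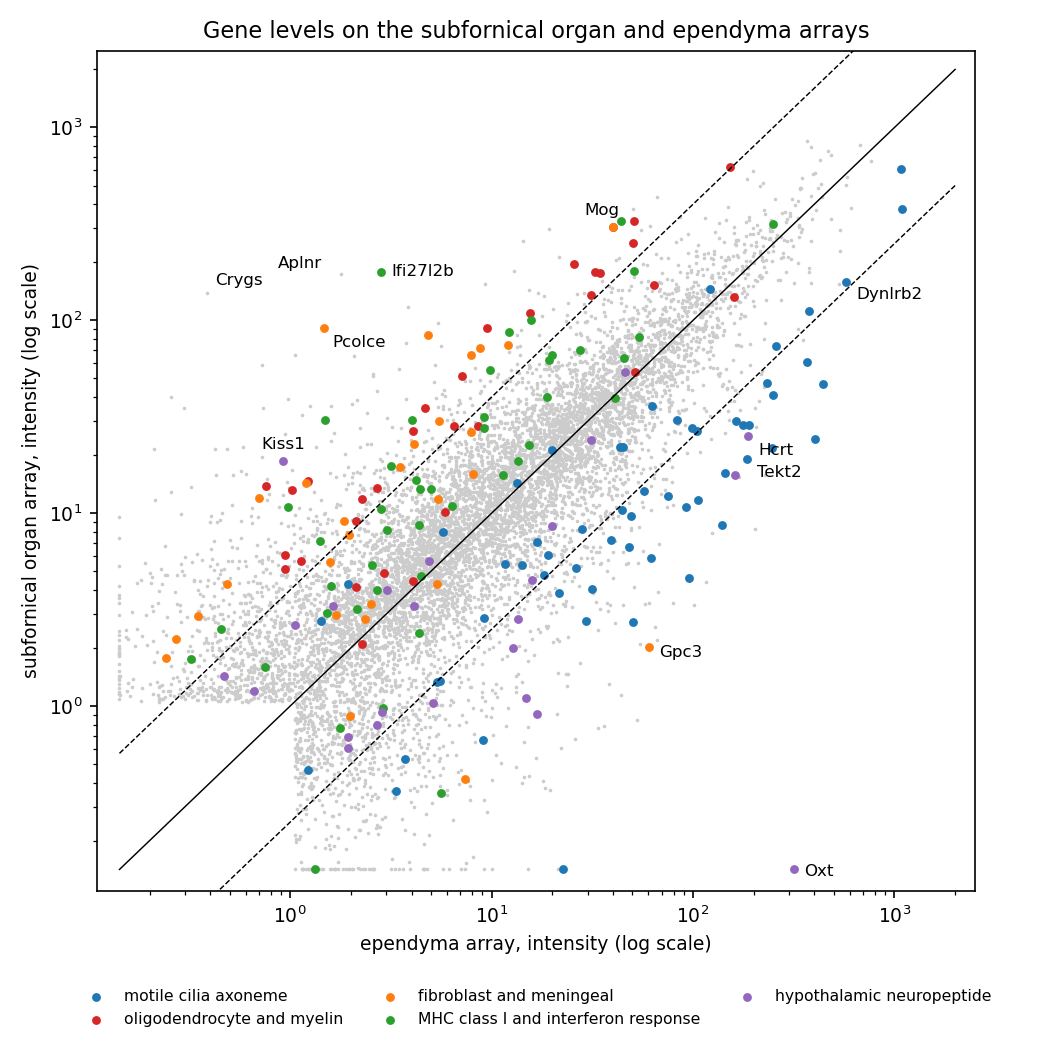
Intensity of each measured gene on the ependyma array (x axis, log scale) and on the subfornical organ array (y axis, log scale), with values below 0.142 drawn at 0.142. Coloured points are members of 5 gene lists, the solid line is equality and dashed lines mark 4-fold; 52 of 58 motile cilia genes lie below the diagonal and 30 of 32 myelin genes above it.

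**Figure D3:**
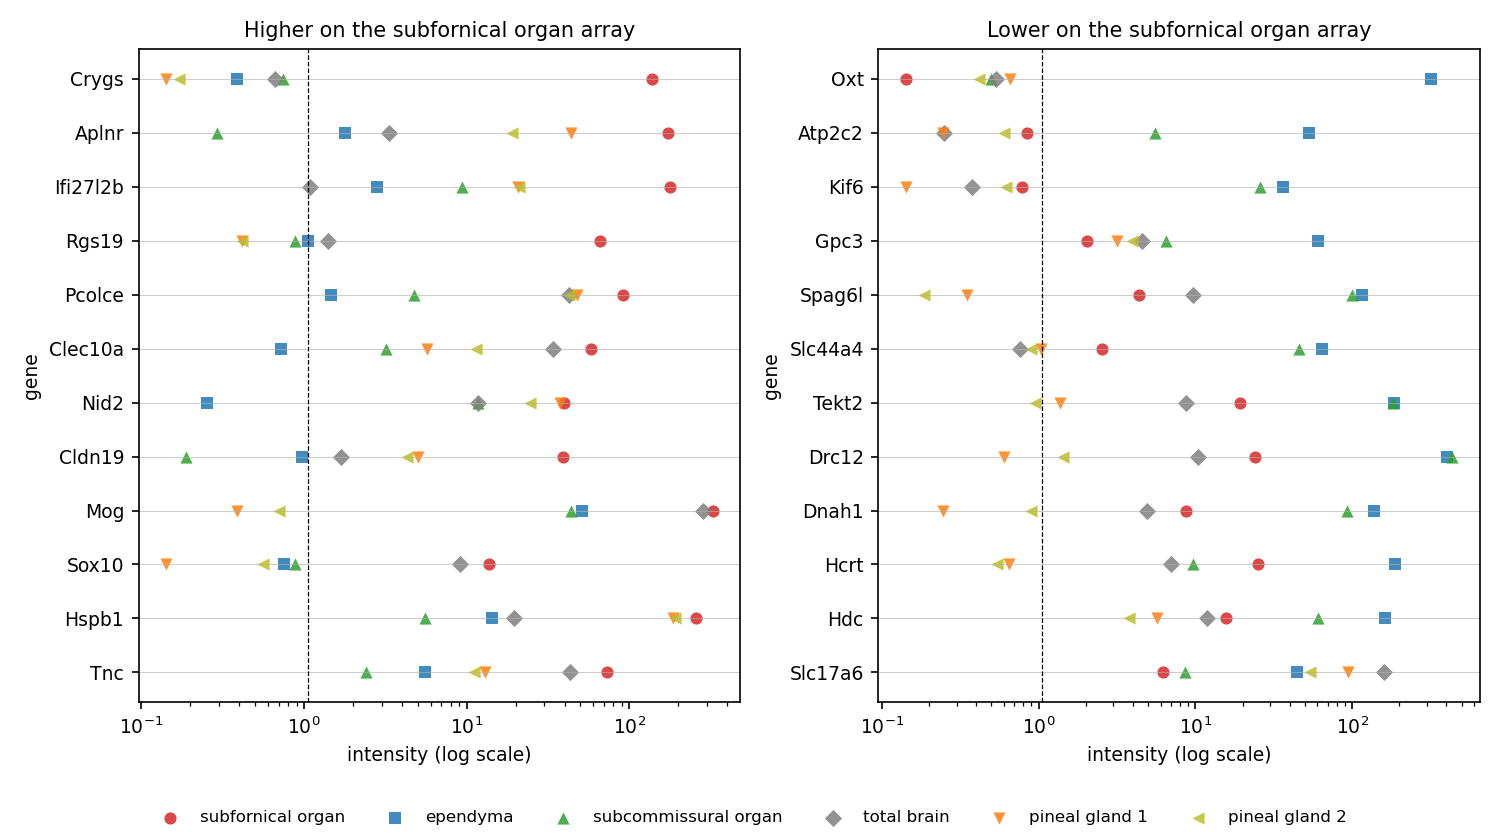
Intensity (x axis, log scale) of 24 named genes (y axis) on each of the 6 arrays, each marker being 1 array, with values below 0.142 drawn at 0.142 and the dashed line at the pooled median of 1.05. Crygs and Rgs19 are high on the subfornical organ array only, and the ciliary genes Tekt2, Drc12 and Dnah1 are about as high on the subcommissural organ array as on the ependyma array.

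Genes of the motile cilium were lower in the subfornical organ as a group. Of 140 genes listed for the axoneme, 62 had a named probe and 58 were measured; 33 of the 58 were at least 4-fold lower, against 6.75% of all measured genes, and 0 were 4-fold higher. The median log2 difference of the list was -2.21, or -2.06 with dim values raised to the pooled median, and 52 of 58 members lay below 0. The summed intensity of the list was 2217 in the subfornical organ, 7908 in the ependyma, 7156 in the subcommissural organ and 1584 in total brain, and in the pineal gland it was 439 and 418. The ciliary sum of the subfornical organ was thus lower than that of both ependymal structures and higher than that of total brain. The samples are mixtures of cells, and in such samples fewer cells of a type and less RNA per cell cannot be told apart. Foxj1, the transcription factor that sets up motile cilia, was at 0.0963 and 0.389 and was not measured on either array, so it gave no check of the ependyma label.

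A promoter word, which the choice of arrays did not use, was counted in the ciliary genes. RFX factors, which control ciliary genes, bind motifs known as X-boxes, and the word searched was GTTGCC or its reverse complement GGCAAC. Promoters were taken from RefSeq, build GRCr8, as the 250 bases before each gene's start, and both strands were searched. The word was in 19 of 50 promoters found for measured axoneme genes (38%), in 11 of 37 for intraflagellar transport and basal body genes (29.7%), and in 9.90% of all 27457 promoters of the same length. Among measured genes it was in 13.8% of 493 promoters of genes at least 4-fold lower and in 7.01% of 485 of genes at least 4-fold higher. For 6545 genes under 4-fold the share was 10.5%. Of the axoneme genes at least 4-fold lower, 10 of 28 had it (35.7%), near the 38% of their whole list, so within the list it did not go with the difference. A longer word, CCTAGCAAC or its reverse complement GTTGCTAGG, was chosen after promoters had been seen. It was in 9 of the 50 axoneme promoters (18%), in 1 of the 37 and in 0.652% of all promoters. Of genes at least 4-fold lower 11 of the 493 had it (2.23%), and of those higher 0 of the 485. Among axoneme genes at least 4-fold lower it was in 4 of 28 (14.3%). A match is a description of these letters and not a measured binding site. The promoters of Ccdc33 and Tekt2 are shown because these genes had the largest differences among 4-fold lower axoneme genes with GTTGCC or GGCAAC in the last 100 bases, a choice made after values were seen; capitals mark the matches. Ccdc33, a coiled-coil gene at 5.87 against 61.8 (10.5-fold lower), has the word 34 to 29 bases before the start. In Tekt2, a tektin of the axoneme, both words overlap within 13 letters, 36 to 24 bases before the start. The windows are chr8:67413486-67413735 and chr5:143907725-143907974, both on the minus strand and printed 5′ to 3′ toward the gene.
Ccdc33: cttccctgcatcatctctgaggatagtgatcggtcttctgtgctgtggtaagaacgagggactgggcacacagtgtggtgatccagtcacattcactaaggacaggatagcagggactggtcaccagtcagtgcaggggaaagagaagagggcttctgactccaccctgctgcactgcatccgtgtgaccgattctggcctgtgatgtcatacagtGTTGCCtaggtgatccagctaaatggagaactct
Tekt2: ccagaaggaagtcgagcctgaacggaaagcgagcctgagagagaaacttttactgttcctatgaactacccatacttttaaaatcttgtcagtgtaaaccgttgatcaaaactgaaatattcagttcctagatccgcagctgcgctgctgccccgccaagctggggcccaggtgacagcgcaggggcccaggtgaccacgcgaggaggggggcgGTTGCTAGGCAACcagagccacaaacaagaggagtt

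Tekt2, whose protein forms filaments along the doublet microtubules, was at 19.2 in the subfornical organ, 185 in the ependyma, 183 in the subcommissural organ, 8.76 in total brain, and 1.38 and 0.944 in the pineal gland. It was 9.63-fold lower in the subfornical organ than in the ependyma, and the arrays of ependyma and subcommissural organ were alike. Tekt1, another tektin, was at 47.1 against 233 (4.95-fold lower). Drc12, a part of the dynein regulatory complex, was at 24.2 against 402 (16.6-fold lower), with 436 in the subcommissural organ. Dnah1, an axonemal dynein heavy chain, was at 8.73 against 139 (15.9-fold lower). Among central apparatus genes, Spef2 was at -0.0714 against 22.7, at least 21.6-fold lower, and Spag6l was at 4.39 against 115, 26.3-fold lower. Each of these differences lay in the same direction, and each gene kept an intensity above the pooled median in the ependyma. Ccdc78, which acts when centrioles multiply in multiciliated cells, was 18.4-fold lower at 2.74 against 50.4, but it was also low in the subcommissural organ, at 5.66.

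Intraflagellar transport and basal body genes, which build and anchor both motile and primary cilia, differed less. Of 63 listed, 46 had a named probe and 43 were measured; 11 were at least 4-fold lower, against 6.75% of all measured genes, 0 were higher, and 42 lay below 0, with a median of -1.54. Ift74, a core subunit of transport complex B, was at 1.68 against 27.5 (16.4-fold lower), and Ift172 was at 2.52 against 17.0 (6.74-fold lower). The same complex included members that were closer, since Ift88 was at 13.3 against 42.0 (3.15-fold lower) and Ift20 at 33.9 against 44.3 (1.31-fold lower). Kif6, a kinesin, was at 0.784 against 36.1, at least 34.3-fold lower. Bbs7, a subunit of the BBSome that carries cargo along cilia, was at 0.972 against 8.11, at least 7.72-fold lower. Ependymal markers outside the cilium did not share this direction as a group: of 24 measured, 16 lay above 0 and 8 below, with a median of 0.33. In this list 3 were 4-fold higher (Cryab, Ptgds and Gpm6b) and 2 lower (Mia and Pltp), against 6.89% and 6.75% of all measured genes. Vim, an intermediate filament, was at 198 against 334, S100b at 10.2 against 9.72, and Mia, a small secreted protein, at 1.27 against 23.6 (18.6-fold lower).

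Myelin genes were higher in the subfornical organ. Of 39 genes listed for oligodendrocytes and myelin, 33 had a named probe and 32 were measured; 23 of the 32 were at least 4-fold higher, against 6.89% of all measured genes, and 0 were lower. The median log2 difference was 2.35. Mog, a glycoprotein of the outer myelin sheath, was at 327 in the subfornical organ, 51.0 in the ependyma, 43.7 in the subcommissural organ, 285 in total brain, and 0.389 and 0.703 in the pineal gland. It was 6.41-fold higher in the subfornical organ than in the ependyma, and the subfornical organ array was close to total brain. Mbp, myelin basic protein, was at 51.5 against 7.15 (7.20-fold higher). Mobp was at 195 against 25.5 (7.65-fold higher) and Mag, an adhesion molecule of the inner sheath, at 109 against 15.5 (6.99-fold higher). Fa2h and Ugt8, which make the sphingolipids of myelin, were 9.58-fold and 11.98-fold higher. Sox10, a transcription factor of the oligodendrocyte lineage, was at 13.8 against 0.758, at least 13.1-fold higher.

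The summed intensity of the myelin list was 3013 in the subfornical organ and 2709 in total brain, against 779 in the ependyma, 626 in the subcommissural organ, and 350 and 264 in the pineal gland. The fornix, a myelinated tract, adjoins the subfornical organ, and the part of neighbouring white matter in these values was not tested. Of 7 measured oligodendrocyte precursor genes 2 were 4-fold higher and 0 lower, against 6.89% and 6.75% of all measured genes. Cspg4, a proteoglycan of these cells and of pericytes, was at 44.7 against 14.8 (3.02-fold higher). Of 24 measured astrocyte genes 3 were 4-fold higher and 1 lower, against 6.89% and 6.75% of all measured genes, and the median was 0.74. With dim values raised to the pooled median the counts were 1 and 1, against 4.38% and 4.26% of all. Gfap, the astrocyte intermediate filament, was at 140 against 39.3 (3.56-fold higher), Aldh1l1 at 105 against 31.1 (3.37-fold higher) and Aqp4, the water channel of astrocyte end feet and ependyma, at 199 against 104 (1.91-fold higher). These 3 astrocyte genes were all higher in the subfornical organ, each by less than 4-fold. Of the 24 measured, 7 lay below 0, and the largest difference of the list was in that direction. It was that of Phkg1, at 2.47 against 33.6 (13.6-fold lower). Slc1a3, a glutamate transporter, was at 232 against 182, and Gja1, connexin 43, was slightly lower at 173 against 215.

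**Figure D4:**
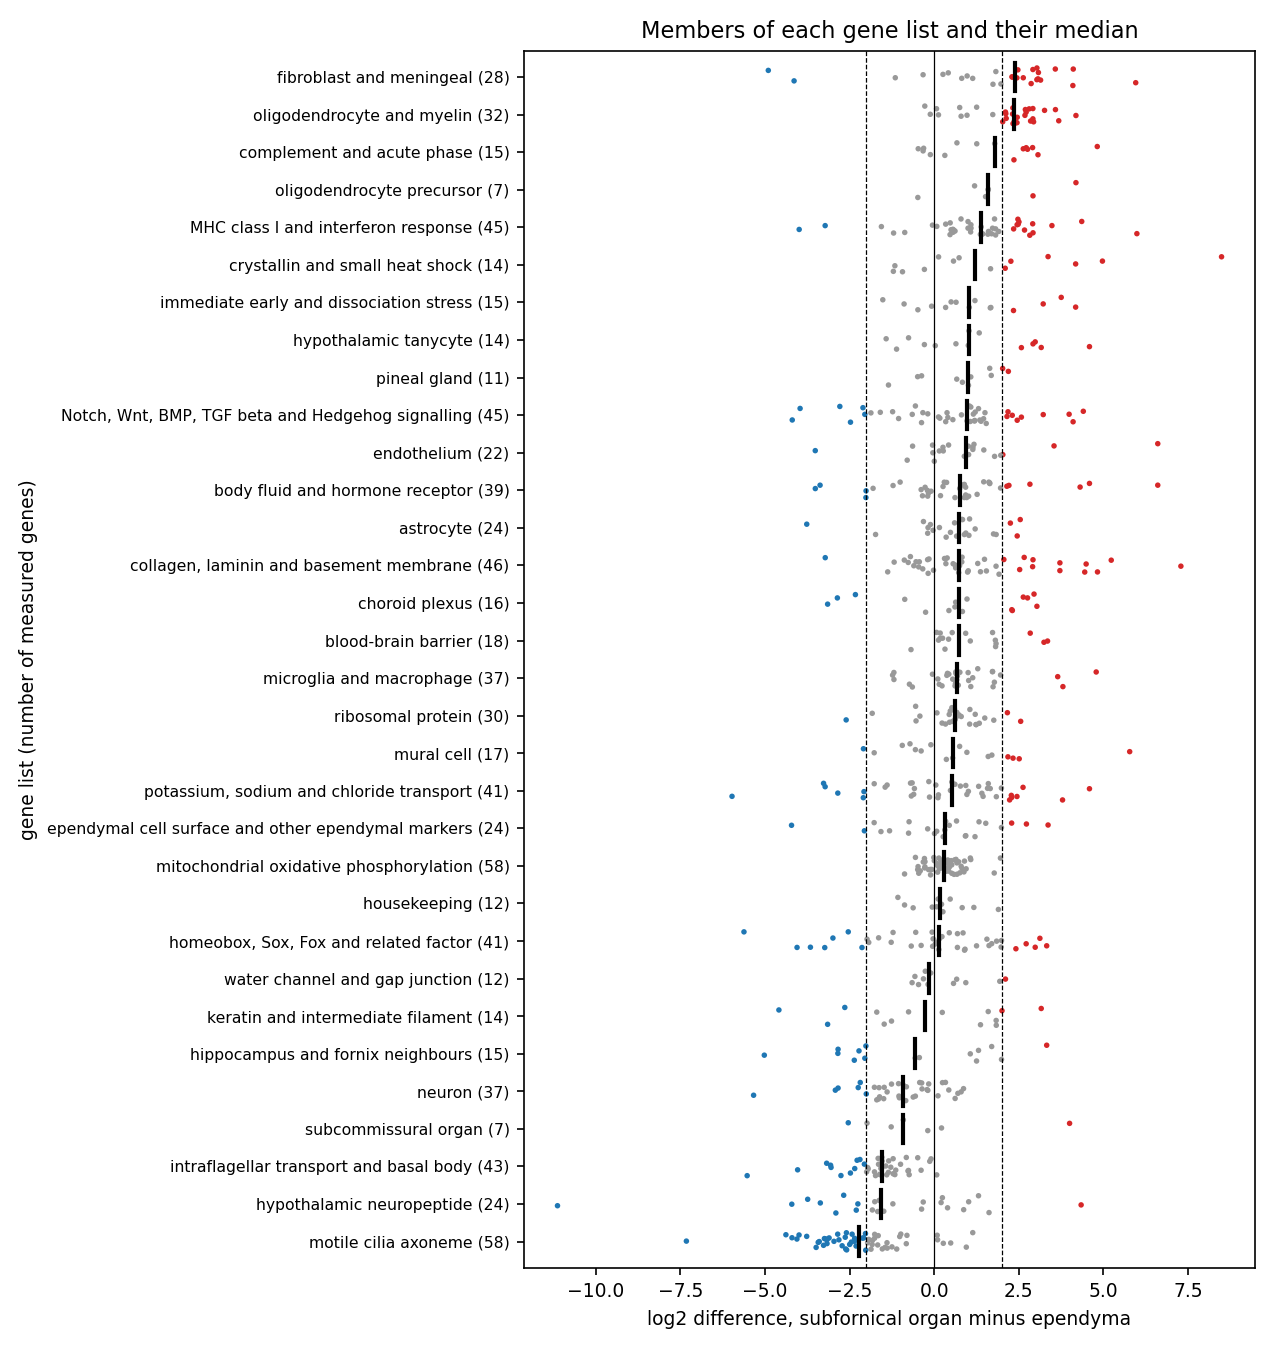
Log2 difference, subfornical organ minus ependyma (x axis), of every measured member of 32 gene lists (y axis, with the number measured), sorted by the list median, which is the black bar. Red and blue points are at least 4-fold higher and lower, and dashed lines mark 4-fold; the medians run from -2.21 for motile cilia to 2.38 for fibroblast and meningeal genes.

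Genes of hypothalamic neurons were lower in the subfornical organ than in the ependyma. Of 53 genes listed, mainly neuropeptides and amine enzymes, 39 had a named probe and 24 were measured; 8 were at least 4-fold lower and 1 higher, against 6.75% and 6.89% of all measured genes. The median was -1.56, and -1.05 with dim values raised to the pooled median. Besides Oxt, the peptide precursors Tac1 (substance P) and Vip were lower, Tac1 at 0.909 against 16.8 (at least 16.0-fold) and Vip at 1.11 against 14.7 (13.3-fold). Hdc, which makes histamine, was at 15.8 in the subfornical organ and 162 in the ependyma, a 10.3-fold difference, and at 60.4 in the subcommissural organ. Hcrt, the orexin precursor, was chosen after its values were seen; it was at 25.1 against 188 (7.48-fold lower), with 9.68 or less on the other arrays. The summed intensity of the list was 183 in the subfornical organ and 869 in the ependyma, with 123 in the subcommissural organ, 288 in total brain, and 756 and 553 in the pineal gland. Oxt alone gave 317 of the 869, so the high sum of the ependyma array rests in large part on that gene. The part of adjacent hypothalamic cells in the ependyma values was not tested.

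The gene of this list that was 4-fold higher was Kiss1. Kiss1, the precursor of kisspeptin, was at 18.6 in the subfornical organ and 0.916 in the ependyma, at least 17.7-fold higher, and did not pass 0.337 on any other array. General neuronal genes were lower with a smaller shift: of 37 measured, 29 lay below 0, 6 were 4-fold lower, against 6.75% of all measured genes, and 0 higher, with a median of -0.91. Their summed intensity was 1043 in the subfornical organ, 1257 in the ependyma and 3528 in total brain. Slc17a6, the vesicular glutamate transporter of excitatory neurons of the hypothalamus and thalamus, was at 6.26 against 44.8 (7.16-fold lower). Camk2a, a synaptic kinase, was at -0.158 against 5.72, at least 5.45-fold lower, and Thy1, a neuronal surface protein, was nearer at 53.5 against 72.0. Snap25 was below the pooled median on both arrays, and Rbfox3 and Syt1 had no named probe. Of 15 measured genes listed for the hippocampus and other neighbours of the fornix, 7 were 4-fold lower and 1 higher, with a median of -0.56. The shares of all measured genes were 6.75% lower and 6.89% higher. Fibcd1, a marker of hippocampal field CA1, was at 0.107 in the subfornical organ and 4.60 in the ependyma, against 141 in total brain.

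Receptors of body fluid signals, by which the subfornical organ is best known, were mostly dim. Of 83 listed, 69 had a named probe and 39 were measured. Of the 39, 6 were at least 4-fold higher and 4 lower, against 6.89% and 6.75% of all measured genes. With dim values raised to the pooled median 3 were higher and 3 lower, against 4.38% and 4.26% of all. Agtr1a, the receptor of angiotensin II, was at 1.96 in the subfornical organ and 0.442 in the ependyma, at least 1.86-fold higher, and it was higher in total brain, at 5.33, and in the pineal gland, at 4.95 and 2.66. Scn7a, the sodium-sensing channel, was at 3.41 against -0.0538, at least 3.25-fold higher, and at 18.03 and 9.42 in the pineal gland. Both values were higher in the subfornical organ than in the ependyma, and both were higher still in the pineal gland. By mean level on the subfornical organ and ependyma arrays both genes fell below the pooled median. In that class 28.5% of genes differed at least 4-fold between the pineal gland arrays, so the direction of these differences is uncertain. Npy1r, a receptor of neuropeptide Y, was at 4.75 against 0.239, at least 4.52-fold higher, but its other probe gave a log2 difference of 0.91. Gipr, the receptor of the gut hormone GIP, was at 0.713 against 8.13, at least 7.74-fold lower. Htr2c, a serotonin receptor, was at 0.971 against 10.045, at least 9.56-fold lower, but another probe of this gene gave a log2 difference of 0.29. Avpr1a and Oxtr, the vasopressin and oxytocin receptors, were below the pooled median on both arrays.

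Tanycyte genes gave a mixed picture. Of 14 measured, 5 were 4-fold higher in the subfornical organ and 0 lower, against 6.89% and 6.75% of all measured genes. With dim values raised to the pooled median 3 were higher, against 4.38% of all. Nes, the intermediate filament nestin, was at 17.4 against 1.94 (8.95-fold higher), with 29.1 in the subcommissural organ. Six6, a homeobox factor of the hypothalamus and eye, was at 5.70 against 0.720, at least 5.42-fold higher, and at most 0.624 elsewhere. Rax, the factor that defines hypothalamic tanycytes, was below the pooled median on both arrays, at 0.0611 and 0.167, and Crym was at 4.53 against 5.54. Among homeobox and related developmental factors, 5 of 41 measured were 4-fold higher and 7 lower, against 6.89% and 6.75% of all measured genes. With dim values raised to the pooled median the counts were 4 and 2, against 4.38% and 4.26% of all. Msx1, a homeobox gene of the dorsal midline, was at 35.1 against 204 (5.81-fold lower), with 241 in the subcommissural organ. Lhx1, a LIM homeobox factor, was at 0.165 against 8.08, at least 7.69-fold lower.

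Endothelial and blood-brain barrier genes were mostly above 0, few of them by 4-fold. Plvap, which forms the diaphragms of fenestrated endothelium, was at 3.36 in the subfornical organ and 3.35 in the ependyma, against 12.98 in total brain and 17.7 and 15.6 in the pineal gland. Of 22 measured endothelial genes, 17 lay above 0, with a median of 0.95. Of these genes 3, Aplnr among them, were 4-fold higher and 1 was lower, against 6.89% and 6.75% of all measured genes. With dim values raised to the pooled median the counts were 2 and 0, against 4.38% and 4.26% of all. Vwf, a clotting factor of endothelium, was at 36.4 against 16.5 (2.21-fold higher), and Pecam1 was at 1.65 against 2.86. Of 18 measured blood-brain barrier genes, 17 lay above 0, with a median of 0.73. Ribosomal protein genes, by comparison, had 25 of 30 above 0 and a median of 0.62. In the barrier list 3 were 4-fold higher and 0 lower, against the same 6.89% and 6.75% of all measured genes. Cldn5, the main barrier claudin, was at 89.4 against 71.7 (1.25-fold higher), and Slc2a1, the glucose transporter and the only member below 0, at 88.2 against 142 (1.61-fold lower). Mfsd2a, a lipid transporter of barrier endothelium, was 7.15-fold higher at 9.62 against 1.35, and Slc38a5, an amino acid transporter, was 10.2-fold higher at 16.1 against 1.58. Which vessels the dissections held was not measured. Of 17 measured mural cell genes 4 were 4-fold higher and 1 lower, against 6.89% and 6.75% of all, with a median of 0.54 and 7 members below 0. Tagln, an actin-binding protein of smooth muscle, was at 11.7 against 0.213, at least 11.1-fold higher, Pdgfrb, the pericyte receptor, at 23.6 against 4.70 (5.03-fold higher) and Myh11, smooth muscle myosin, at 114 against 20.1 (5.70-fold higher). A further probe of Myh11 gave a log2 difference of 1.72, under 4-fold. The lower gene was Rgs4, a regulator of G protein signals, at 1.48 against 6.30 (4.26-fold lower), and Kcnj8, a potassium channel of pericytes, was at 8.46 against 4.33 while its other probe gave a log2 difference of -3.31.

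Most fibroblast and meningeal genes were higher in the subfornical organ. Of 43 fibroblast and meningeal genes listed, 38 had a named probe and 28 were measured; 16 were 4-fold higher, against 6.89% of all measured genes, and 2, Gpc3 and the matrix-associated Ccn3, were lower (6.75% of all), with a median of 2.38, or 1.90 with dim values raised to the pooled median. The summed intensity of the list was 893 against 200 in the ependyma, with 201 in the subcommissural organ and 585 in total brain. Besides Pcolce, Fbln1, a matrix glycoprotein, was at 83.5 against 4.84 (17.2-fold higher). Dcn, a collagen-binding proteoglycan, was at 14.3 against 1.19 (11.9-fold higher), but at 23.2 in the subcommissural organ and 30.4 and 27.6 in the pineal gland, so the ependyma was the low array. Timp1, an inhibitor of matrix proteases, was at 66.4 against 7.93 (8.37-fold higher), and Col1a1, fibrillar collagen, at 7.71 against 1.97 (3.92-fold higher). Lum and Pdgfra, markers of fibroblasts, were below the pooled median on both arrays. The part of meningeal or perivascular fibroblasts in the matrix values was not tested.

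Of 46 measured collagen, laminin and basement membrane genes, 12 were 4-fold higher and 1 lower, against 6.89% and 6.75% of all, with a median of 0.74 and 15 members below 0. Nid2, a linker of laminin and collagen IV, was at 39.8 in the subfornical organ and 0.255 in the ependyma, at least 37.9-fold higher. It was at 11.8 in the subcommissural organ, 11.7 in total brain, and 37.7 and 24.4 in the pineal gland, so again the ependyma stood apart. Vcan, a large matrix proteoglycan, was at 15.4 against 2.04 (7.56-fold higher), and Itga8, an integrin subunit, at 5.33 against -0.0653, at least 5.07-fold higher. Lama4, a vascular laminin chain, was at 9.99 against 0.458, at least 9.50-fold higher, but its other probe gave a log2 difference of -0.72. Col4a1, the main vascular collagen IV chain, was at 2.07 against 4.70 (2.27-fold lower). Eln, elastin, was at 22.1 against 0.586, at least 21.1-fold higher, but it was also at 22.2 in total brain and 22.8 and 12.4 in the pineal gland.

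Genes of the interferon response and of class I antigen presentation were higher in the subfornical organ. Of 59 listed, 47 had a named probe and 45 were measured; 12 were 4-fold higher, against 6.89% of all measured genes, 2 were lower, and 39 lay above 0, with a median of 1.39. Ifi27l2b, an interferon-induced gene, was at 179 in the subfornical organ, 2.82 in the ependyma, 9.43 in the subcommissural organ, 1.08 in total brain, and 20.8 and 21.0 in the pineal gland. It was 63.4-fold higher in the subfornical organ than in the ependyma and highest there of all arrays. Mx1, an antiviral GTPase, was at 30.4 against 1.48 (20.5-fold higher), and Irf7, a factor that amplifies the interferon response, at 10.8 against 0.971, at least 10.3-fold higher. B2m, the light chain of class I molecules, was nearer at 15.9 against 11.4 (1.39-fold higher). Ifit3, an antiviral effector, went the other way at 0.353 against 5.61, at least 5.33-fold lower. The summed intensity was 1999 against 744, with 540 in the subcommissural organ, 537 in total brain, and 1047 and 740 in the pineal gland.

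Interferon-induced genes are switched on through promoter elements that contain 2 copies of GAAA with any 2 letters between them, or 2 copies of TTTC on the other strand. In the 250 bases before the start this word was in 21 of 34 promoters found for the measured genes of the list (61.8%) and in 3.29% of all promoters. It was in 4 of the 8 promoters found for genes of the list at least 4-fold higher, and in 3.30% of all genes at least 4-fold higher, near the share of all promoters. The promoters of Irf7 and Ifitm2, a membrane protein that blocks virus entry, at 86.5 against 12.2 (7.08-fold higher), are shown as the 2 largest 4-fold differences of the list with the word in the last 100 bases, by the same choice; capitals mark it. It lies 69 to 60 bases before the start of Irf7 and 33 to 24 bases before that of Ifitm2. Their RefSeq windows in GRCr8 are chr1:205800024-205800273 and chr1:205482349-205482598, both on the minus strand and printed 5′ to 3′ toward the gene.
Irf7: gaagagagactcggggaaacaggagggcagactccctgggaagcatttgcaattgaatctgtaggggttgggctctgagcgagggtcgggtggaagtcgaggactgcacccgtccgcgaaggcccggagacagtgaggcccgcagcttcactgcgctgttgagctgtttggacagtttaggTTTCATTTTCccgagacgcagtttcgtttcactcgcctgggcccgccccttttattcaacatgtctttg
Ifitm2: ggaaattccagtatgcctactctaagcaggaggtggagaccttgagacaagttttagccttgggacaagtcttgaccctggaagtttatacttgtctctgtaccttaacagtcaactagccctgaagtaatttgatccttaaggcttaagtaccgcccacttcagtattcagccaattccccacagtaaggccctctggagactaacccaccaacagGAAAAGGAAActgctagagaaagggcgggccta

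Most microglia and macrophage genes lay above 0, but few were 4-fold apart. Of 37 measured, 31 lay above 0, with a median of 0.67, against 0.13 for all measured genes. Ribosomal protein genes were shifted about as much, with 25 of 30 above 0 and a median of 0.62. Of the 37 microglia and macrophage genes 3 were 4-fold higher, near the 6.89% of all measured genes, and 0 were lower. Cd68, a lysosomal protein of phagocytes, was at 25.8 against 0.936, at least 24.6-fold higher, and Gpnmb, a glycoprotein of activated macrophages, was at 180 against 12.9 (14.0-fold higher). The markers shared by most microglia were closer: Aif1 was at 86.9 against 53.9 (1.61-fold higher), Tyrobp at 145 against 93.1 (1.56-fold higher) and Csf1r at 263 against 237 (1.11-fold higher). Summed over the list, intensity was 1217 against 733. Of 15 measured complement and acute phase genes, 7 were 4-fold higher and 0 lower, against 6.89% and 6.75% of all measured genes. The median was 1.79, and Timp1 and Serping1 are in this list and the fibroblast list. Lcn2, a protein that binds bacterial iron carriers, was 28.2-fold higher at 32.4 against 1.15, but was highest in the subcommissural organ, at 124. C2, a complement protease, was 6.58-fold higher at 48.5 against 7.37, and Serping1, the inhibitor of C1, was 6.20-fold higher at 74.8 against 12.1. The part of immune and vessel-associated cells in the interferon and complement values was not tested.

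Small heat shock proteins and crystallins form 1 family in part, and several of its members were higher. Of 14 measured, 6 were 4-fold higher and 0 lower, against 6.89% and 6.75% of all measured genes, with a median of 1.20. Apart from Crygs, the higher genes were Hspb2 at 65.0 against 2.07 (31.3-fold higher), Hspb1 at 258 against 14.3 (18.1-fold higher), Cryab at 31.1 against 3.02 (10.3-fold higher), Hspb8 at 66.4 against 13.8 (4.81-fold higher) and Crybb1 at 13.1 against 3.06 (4.28-fold higher). A further probe of Hspb8 gave a log2 difference of 1.18, under 4-fold. The heat shock proteins Hspb1 and Hspb2 were also high in the pineal gland, at 186 and 191 and at 20.4 and 24.2, while the lens crystallins Crygs and Crybb1 were not. Of 15 measured immediate early and stress genes, 4 were 4-fold higher and 0 lower, against the same shares of all measured genes. Sgk1, a kinase induced by aldosterone and other steroids, was at 143 against 15.4 (9.32-fold higher), whereas Egr1 was at 12.9 against 23.9. Fos was at 6.32 against 8.82, but its other probe gave a log2 difference of 0.91.

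Of 45 measured genes of the Notch, Wnt, BMP, TGF beta and Hedgehog pathways, 9 were 4-fold higher and 6 lower. The shares of all measured genes were 6.89% and 6.75%. With dim values raised the counts were 6 and 2, against 4.38% and 4.26% of all. Tgfb3, a TGF beta ligand, was at 42.9 against 2.71 (15.8-fold higher), and Id3, a target of BMP signals, was at 183 against 33.5 (5.47-fold higher). Rspo1, which strengthens Wnt signals, was at 7.17 against 0.417, at least 6.83-fold higher. Of the Hedgehog factors, Gli2 was at 4.33 against 0.204, at least 4.12-fold higher, and Gli1 at 0.129 against 2.59, at least 2.47-fold lower. By mean level on the 2 arrays both fell below the pooled median. In that class 28.5% of genes differed at least 4-fold between the pineal gland arrays, so the direction of both differences is uncertain. Among 41 measured ion transport genes, 7 were 4-fold higher and 6 lower, against the same 6.89% and 6.75% of all measured genes. Slc12a2, the sodium, potassium and chloride cotransporter, was at 43.1 against 8.82 (4.88-fold higher), and Fxyd2, a regulator of the sodium pump, was at 9.59 against 0.693, at least 9.13-fold higher. Atp2b2, a calcium pump of the plasma membrane, was lower at 5.53 against 53.2 (9.63-fold lower).

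Markers of neighbouring epithelia and glands varied. Ttr, the main product of the choroid plexus, was at 4.17 in the subfornical organ and 4.97 in the ependyma, against 116 in total brain, and Kl, Aqp1 and Clic6 were below the pooled median on both arrays. Of 16 measured choroid plexus genes, 6 were 4-fold higher and 3 lower, against 6.89% and 6.75% of all measured genes. With dim values raised the counts were 3 and 3, against 4.38% and 4.26% of all. Krt8, a keratin of simple epithelia, was at 6.34 against 56.2 (8.86-fold lower), and Folr1, a folate receptor, was at 10.98 against 79.7 (7.26-fold lower). Krt8 was at most 11.9 on the other arrays, so the ependyma was high. Aanat, which makes the melatonin precursor, was at 10.9 and 10.7 in the pineal gland. In the subfornical organ it was at 4.44 and in the ependyma at 2.20. Asmt and Tph1, also of the pineal gland list, were below the pooled median in both of these structures. Of 11 measured pineal gland genes 2 were 4-fold higher, Gngt2 (9.20 against 2.01) and Chrnb4 (2.77 against 0.682), and 0 lower. With dim values raised only Gngt2 was left. Of 7 measured subcommissural organ genes Ucma was 4-fold higher and Msx1, as given above, lower, against 6.89% and 6.75% of all measured genes. Ucma had an intensity of 12.5 in the subfornical organ and at most 0.781 elsewhere. Cuzd1, Creb3l4 and Mafk, of the same list, were below the pooled median in both structures. Genes common to all cells differed little: 0 of 58 oxidative phosphorylation genes and 0 of 12 housekeeping genes differed 4-fold, with medians of 0.30 and 0.17. Of 30 measured ribosomal protein genes 25 lay above 0, with a median of 0.62. In this list 2 were 4-fold higher and 1 lower, against 6.89% and 6.75% of all measured genes. The 3 that differed were dim, with 0 left when dim values were raised to the pooled median.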

How the data were processed

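The authors deposited linear intensities, 1 for each probe of each array, some of them slightly negative; that the scale is linear was read from the values. Both array medians lie close to 1; scanner, software, background correction and scaling method are not given in the sources used here, nor is a detection limit. The code -9999 was taken as missing. A single gene symbol was listed for 16865 of 35129 probes, several for 165, and 18099 are unnamed here; the RefSeq gene table held 16836 of the first and gave 1 a newer symbol. Each of 12167 genes was represented by its brightest probe over the 6 arrays. Values were floored at 0.142 and log2 differences taken, with no further scaling (Python 3.11.15, numpy 2.4.6, pandas 2.3.3). For 164 of the 4-fold genes another probe was measured, and for 29 its difference had the other sign. Counting was tested on simulated data. The members and gene lists were chosen with earlier results of these data known. Named genes are the 20 largest differences in each direction (dim values raised to the pooled median), the first 5 and the 5 most different members of each of 32 lists, the 5 largest among genes 4-fold apart from all other arrays, and Aplnr, Crygs, Pcolce, Tekt2, Trh, Foxj1, Agtr1a, Gfap and Ttr; Trh had no named probe. Promoter windows of 250 bases came from RefSeq, GRCr8. Alternatives were quantile normalization, other filters and floors, other probe choices and centring.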

Additional observations from a re-analysis of the deposited data

How the results depend on the processing

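Of 160 named genes that differed at least 4-fold, 158 kept that size after quantile normalization, 134 with dim values raised to the pooled median, 137 of 153 with a value as the median over probes, 160 with the brightest probe of the 2 arrays and 155 after centring, and 0 changed direction in these. Many of these genes were named for the size of their difference, some by the dim-raised value itself. The counts are therefore fixed in part by that choice and do not stand for all 4-fold genes. Of all 1235 genes at least 4-fold apart, 783 kept that size with dim values raised. Another filter leaves each gene's fold as it was and a lower floor can only widen it, so those alternatives bear only on counts and medians. The floor at the lowest positive value was chosen after seeing the data, in place of the 1st percentile, which is negative and was not run. With the 75th percentile filter the 4-fold genes numbered 626 (321 higher, 305 lower), because fewer genes were tested, and with dim values raised to the median 783 (397 higher, 386 lower). Quantile normalization gave 607 higher and 657 lower, and centring 565 and 688. The cilia median was -2.06 without a filter and with dim values raised, and -2.35 with the 75th percentile filter and after centring. The neuropeptide median was -0.37 without a filter, -2.46 with the 75th percentile filter and -1.05 with dim values raised. The fibroblast median was 1.66 without a filter and 1.90 with dim values raised. The sign turned for the median of water channel and gap junction genes, from -0.14 to 0.66, and of keratin and intermediate filament genes, from -0.26 to 0.24, both with the 75th percentile filter, and of housekeeping genes, from 0.17 to -0.029, after quantile normalization; the cause was not tested. No paired analysis was possible because each structure has 1 array. Dim signal limits what can be shown for receptors and peptides.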

Other observations

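Some further genes, outside the rule for named genes, were chosen after their values were seen and are descriptions. Fgf3, a secreted growth factor, was at 16.0 in the subfornical organ and 0.603 in the ependyma, at least 15.2-fold higher, and did not pass 1.42 on any other array. Cbs, which makes cystathionine from homocysteine, was at 58.5 against 5.25 (11.1-fold higher), and all 4 other arrays had 4.53 or less. Prl, the pituitary hormone prolactin, was at 7.61 against 1.16 (6.58-fold higher), and did not pass 1.62 elsewhere. Npvf, the precursor of a hypothalamic RFamide peptide, was at 0.406 in the subfornical organ and 17.9 in the ependyma, at least 17.1-fold lower, and did not pass 0.491 elsewhere.

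In the opposite sense, 13 genes (0.144% of measured genes) lay at least 4-fold below all 5 other arrays in the subfornical organ, with dim values raised. Rtel1, a DNA helicase of telomeres, was at 1.26 there and between 11.7 and 49.8 on the others. Grk2, a kinase that desensitizes G protein-coupled receptors, was at 0.324 and between 4.94 and 9.12 on the others. Against the ependyma its other probe gave a log2 difference of -0.96, under 4-fold. Kcnj11, a subunit of the ATP-sensitive potassium channel, was at 0.786 against 11.7, but its other probe gave a log2 difference of 1.03.

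Among 8808 measured probes without a gene name here, 728 were at least 4-fold higher in the subfornical organ and 876 were lower (18.2% in all). Which genes they represent was not analysed here.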
